A study of Mus musculus with 20 samples.

Results

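The genes described here were the 93 nuclear genes of oxidative phosphorylation in the count table of an scRNA-seq series on mouse spinal cord injury (SCI). They were chosen by symbol, as every gene of the table whose name starts with Nduf, Uqcr, Cox4, Cox5, Cox6, Cox7, Cox8, Sdh or Atp5, and made up 93 of 16003 genes. No measured value entered this rule, though members were chosen with earlier results of these data known. By respiratory complex they comprised 36 genes of complex I, 4 of complex II, 8 of complex III, 19 of complex IV and 15 of complex V. The other 11 carried the same prefixes but are assembly factors or ATP synthase-related genes (Ndufaf and Sdhaf genes, Atp5s and Atp5sl). Ndufa4 and Ndufa4l2 were counted with complex IV, where the Ndufa4 protein sits.

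Oxidative phosphorylation runs in the inner mitochondrial membrane. Complexes I and II pass electrons from NADH and succinate to ubiquinone, complex III passes them to cytochrome c, and complex IV passes them to oxygen. Complexes I, III and IV pump protons, and complex V (ATP synthase) uses the returning protons to make ATP. Complex II is also an enzyme of the TCA cycle. A few core subunits of complexes I, III, IV and V are encoded by mitochondrial DNA, and all others, including every gene named here, are encoded in the nucleus and imported. Several complex IV subunits have a second gene that is used in particular tissues.

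Cells came from female C57BL/6J mice, 8 to 10 weeks old by the labels, fed vehicle chow or chow with PLX5622 (1200 ppm), a CSF1R antagonist that depletes microglia, from 2 weeks before surgery to the endpoint. Surgery at T9 was a laminectomy only (sham) or a contusion, and 1 cm of cord was dissociated at 7 or 28 days post-injury (dpi). Each of the 6 conditions (sham, 7 dpi and 28 dpi, each with vehicle or PLX5622) was 1 library that pooled 3 to 4 mice, and the sham libraries are labelled with both days. With 1 library per condition there is no replicate error, so no test between conditions was possible and no p-value is given.

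The count table held 21016 cells in 14 deposited clusters. The vehicle libraries gave 1795 (sham), 7439 (7 dpi) and 9846 (28 dpi) cells, and the PLX5622 libraries gave 492, 504 and 940. Cells were shallower at 28 dpi: the median microglial cell held 3178 UMIs (unique transcript molecules) in the sham vehicle library, 2902.5 at 7 dpi and 1686 at 28 dpi. Clusters were named from marker genes as microglia, monocyte-derived macrophages (MDMs), endothelial cells, monocytes, astrocytes, T cells, ependymal cells, B cells, a proliferating cluster, neutrophils, erythroid cells and oligodendrocyte lineage. The defining genes of mature oligodendrocytes were near 0 in the last, and 3 of 6 monocyte markers were highest in the monocyte cluster. Cluster 12, led by the fibroblast genes Lum and Dcn beside pericyte markers, and cluster 13 were left unnamed. Across the libraries, 44 cell barcodes occurred in 2 libraries each, and the summed ratios, counts, levels, paralogue shares and values of named genes were also computed without these cells where at least 20 cells remained.

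In all cells together the 93 genes gave 1469437 UMIs, which was 1.81% of all UMIs. Complex IV took 0.571% of all UMIs, complex I 0.502%, complex V 0.474%, complex III 0.209%, complex II 0.0321% and the assembly group 0.0199%. Of the 93 members, 91 could be placed on the mouse genome, on 19 chromosomes. The level of a gene or complex below is its UMIs per 1000000 UMIs (CPM), summed over the cells of 1 type in 1 library, and its 95% interval covers counting error only. The library protocol tags the end of each transcript, so UMIs were not divided by gene length.

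In CPM of all UMIs, astrocytes had the highest level of the summed members and neutrophils the lowest. The totals differed in make-up between types. In the sham vehicle library the ribosomal protein genes (Rpl and Rps) summed to 18739.9 CPM in astrocytes and 313208 CPM in T cells. The order of types on totals without these genes was not computed. The median over libraries was 24684 CPM in astrocytes, with a range of 21835 to 30557 over 6 libraries, against 9888 CPM in neutrophils, with a range of 7860.4 to 13265 over the 4 libraries with at least 20 neutrophils. Astrocytes ranked first or second among the cell types in each of the 6 libraries. Oligodendrocyte lineage cells (21249 CPM), the proliferating cluster (21246 CPM) and cluster 12 (20341 CPM) followed, with cluster 13 (22818 CPM) measured in only 2 libraries. Microglia had a median of 15668 CPM, with a range of 10223 to 17362, and ranked 13th, 12th and 13th in the vehicle libraries of sham, 7 dpi and 28 dpi. MDMs, the other large myeloid population, had a median of 19151 CPM, with a range of 14710.2 to 19476. Most neighbours in this order had overlapping ranges over libraries. At the ends of the order, the lowest astrocyte library was above the highest microglial, MDM and neutrophil libraries.

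**Figure D1:**
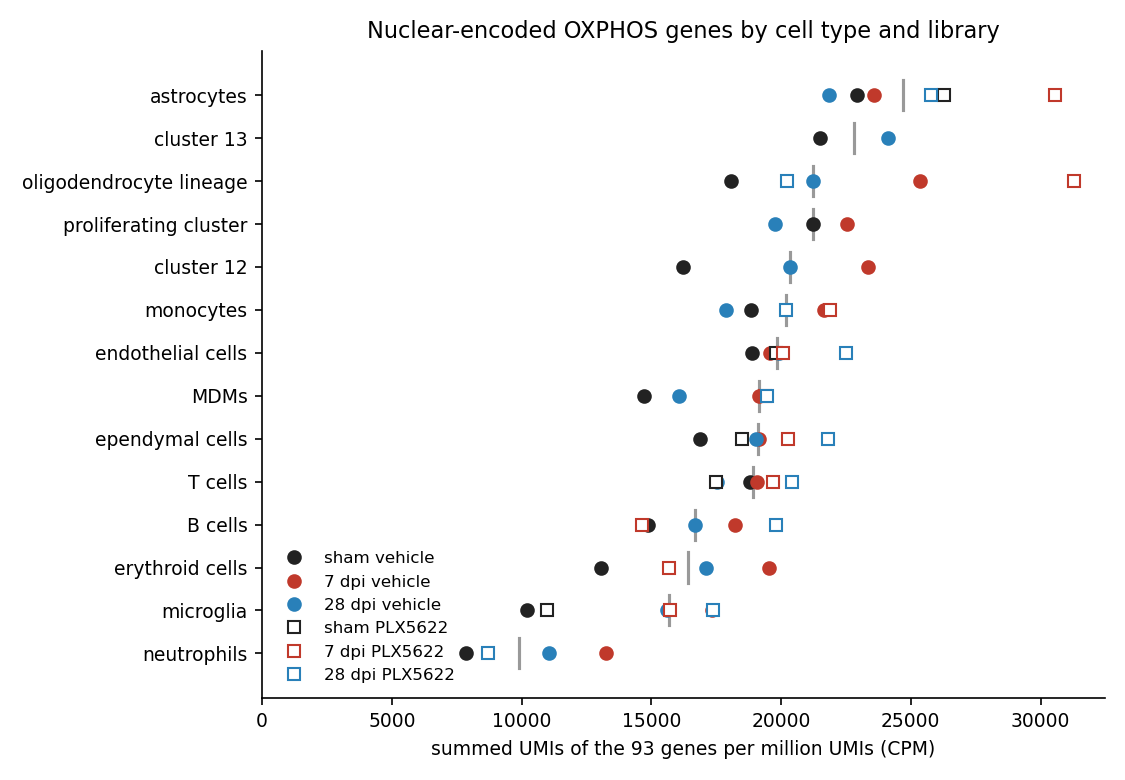
Summed level of the 93 oxidative phosphorylation genes (CPM) in each cell type, with 1 point per library and the median over libraries marked. Astrocytes sit highest, with a median of 24684 CPM, and neutrophils lowest, with a median of 9888 CPM, while microglia span 10223 to 17362 CPM.

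The low end of the order was shared by most members, and the high end was not. Neutrophils were the type with the lowest CPM for 69 of the 93 genes, and astrocytes were the highest type for 38 and oligodendrocyte lineage cells for 21. The same shares over all genes were not computed, so these counts cannot be read as particular to the members. In the neutrophil cluster S100a8 measured 133570 CPM and S100a9 162320 CPM, and these UMIs are part of the total that every CPM there is taken from. Astrocytes led complexes I, II, III and IV, with medians of 7706, 583, 2844 and 7334 CPM, and the proliferating cluster led complex V with a median of 6169 CPM. Complex II, the succinate dehydrogenase, spanned a wide range, from 583 CPM in astrocytes to 160 CPM in neutrophils (medians over libraries). Over the 66 pairs of type and library, the levels of complexes IV and V moved closely together (Pearson's r = 0.946, a description over pairs that share libraries and their totals), and those of complexes II and IV less so (r = 0.639).

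Between sham and 7 dpi, the question was whether microglia, the resident macrophages of the cord, carried more or less of this transcript set after contusion. Under vehicle the summed members measured 10223 CPM in 674 sham microglia, 17322 CPM in 2154 microglia at 7 dpi and 15619 CPM in 3974 at 28 dpi. Both injured libraries were above the sham library, with 7 dpi the highest. The log2 ratio of 7 dpi over sham was 0.76 (0.74 to 0.78). The median log2 ratio of all 6623 genes tested (at least 100 UMIs in both libraries together) was -0.54, and relative to that median the summed members were 1.31 higher on the log2 scale. The 28 dpi library gave a log2 ratio of 0.61 (0.59 to 0.63), and 1.05 relative to a median of -0.44. Both comparisons use the same sham library.

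By gene, 63 of the 82 members tested in microglia at 7 dpi were more than 1.5-fold higher relative to the median of all genes, where 20.6% of all genes tested were, and 1 member was more than 1.5-fold lower, where 15.7% of all genes were. At 28 dpi, 60 of 82 members were more than 1.5-fold higher, against 17.7% of all genes, and 0 were lower, against 11.5%. The members left out had too few UMIs in both libraries together. The cytosolic ribosomal protein genes (Rpl and Rps), another large set of abundant transcripts, were also higher: 78 of 87 tested were more than 1.5-fold higher at 7 dpi, with a median of 1.34 relative to all genes. Their summed level was 124119 CPM in sham microglia, 223618 CPM at 7 dpi and 196456 CPM at 28 dpi. Over the same libraries the 6 microglial markers summed to 12689.5, 4617 and 4857 CPM in this cluster, and the 6 MDM markers, of which 2 were at 0 in the sham library, to 59.6, 4291 and 4254 CPM. The part of these shifts in the result was not tested.

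The complexes did not move by the same amount. Complex IV was 2945 CPM in sham microglia, 5693 CPM at 7 dpi and 5131 CPM at 28 dpi, which was 1.50 and 1.24 higher on the log2 scale relative to the median of all genes. All 13 tested complex IV members were past 1.5-fold at both times. Complex III (1178, 2082 and 1831 CPM) gave 1.37 and 1.08, complex V (2609, 4441 and 3931 CPM) gave 1.31 and 1.03, and complex I (2944, 4673 and 4264 CPM) gave 1.21 and 0.98. Complex II stood apart, at 301.5 CPM in sham, 264 CPM at 7 dpi and 277 CPM at 28 dpi, or 0.36 and 0.32 relative to all genes, and the assembly group was lower in CPM after injury (246, 169 and 185 CPM), at 0.00 and 0.03 relative to all genes. The intervals of complex II and of the assembly group lay below those of the other complexes in both comparisons.

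**Figure D2:**
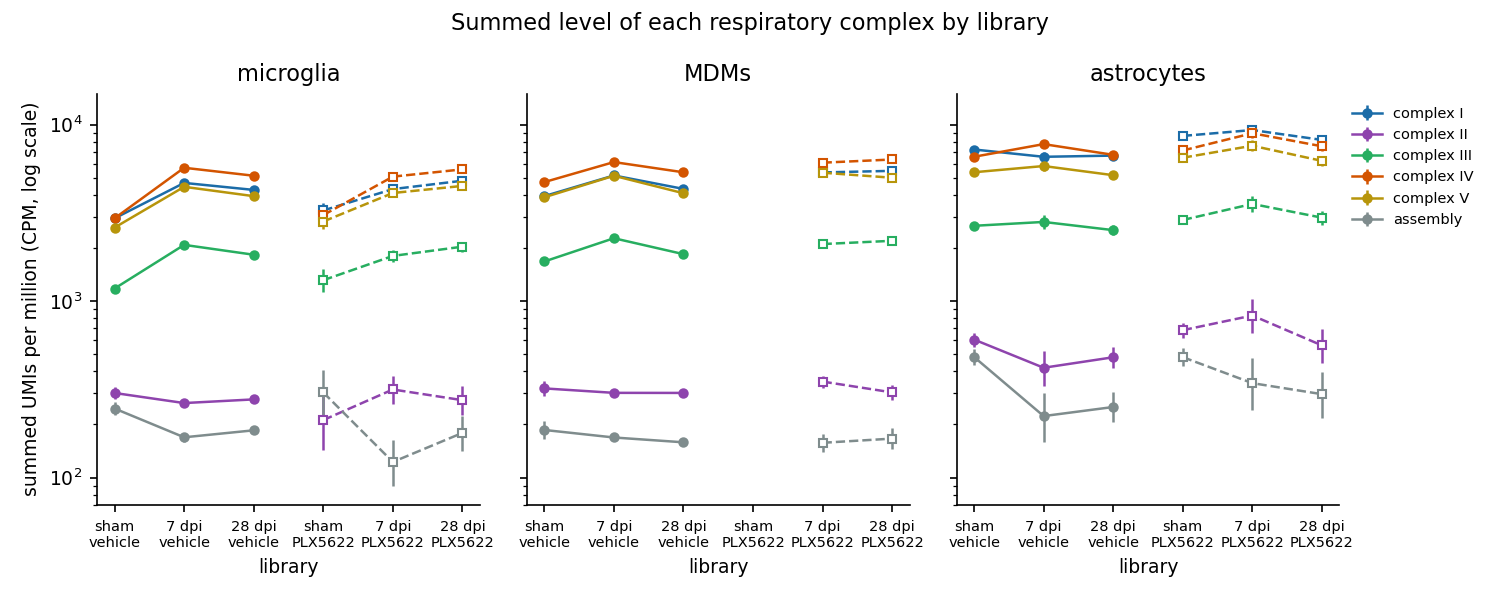
Summed CPM of each complex (log axis) by library in microglia, MDMs and astrocytes, with filled circles for vehicle, open squares for PLX5622 and bars for the 95% counting interval. In microglia complexes I, III, IV and V are higher at 7 and 28 dpi than in sham, while complex II stays between 264 and 301.5 CPM under vehicle; MDMs of the sham PLX5622 library (9 cells) are not drawn.

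Within complex I, the largest differences in microglia were in supernumerary subunits, which surround the catalytic core. Ndufa2 measured 181 CPM in sham, 423 CPM at 7 dpi and 368 CPM at 28 dpi. Ndufb7 measured 57.7, 154 and 142 CPM, and Ndufa1 measured 68.2, 176 and 169.5 CPM in the same order. All of these were higher in both injured libraries than in sham. Relative to the median of all genes, 33 of 35 tested complex I members had an interval above 0 at both times and 1 had one below. Of the core subunits, only Ndufs1 and Ndufv1 are given here. Ndufs1, the iron-sulfur protein that carries electrons away from the NADH site, was the lowest complex I member at both times. It measured 32.9 CPM in sham, 16.4 CPM at 7 dpi and 17.9 CPM at 28 dpi. Ndufv1, which holds the NADH-binding site, measured 29.1, 25.6 and 31.4 CPM. Its log2 ratio over sham, before the median of all genes was taken off, had an interval that included 0 at both times.

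Complex II contains only 4 proteins, all nuclear-encoded, and its members differed in direction. Sdhb, the iron-sulfur subunit, measured 72.5 CPM in sham microglia, 95.1 CPM at 7 dpi and 94.3 CPM at 28 dpi, and Sdha, the flavoprotein that oxidizes succinate, 94.9, 74.8 and 73.4 CPM. Sdhd, one of the membrane anchors, was the member with the lowest log2 ratio at 7 dpi and was lower in both injured libraries, at 80.6, 30.4 and 47.8 CPM, a log2 ratio of -1.41 (-1.71 to -1.11) at 7 dpi and -0.75 at 28 dpi. In MDMs the same gene was 66.3 CPM in sham, 34.1 CPM at 7 dpi and 42.8 CPM at 28 dpi. So the sham library held the highest vehicle level of Sdhd in both myeloid types.

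In complex III, the small hinge protein gene Uqcrh was higher after injury, at 406 CPM in sham microglia, 780.4 CPM at 7 dpi and 638 CPM at 28 dpi. Uqcrc1, a large core protein, measured 63.0, 73.9 and 74.0 CPM, and Uqcrfs1, the Rieske iron-sulfur protein, 93.03, 101 and 111 CPM. In complex V, Atp5e, the small epsilon subunit of the central stalk, measured 304 CPM in sham, 810.2 CPM at 7 dpi and 614 CPM at 28 dpi. The catalytic head subunits were level or lower in CPM: Atp5b measured 236, 234 and 229 CPM and Atp5a1 239.5, 202 and 181 CPM. Relative to the median of all genes, Atp5a1 was 0.30 higher and Atp5b 0.54 higher at 7 dpi, against 1.96 for Atp5e.

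Complex IV, the cytochrome c oxidase, held the member with the highest ratio. Cox6a2, known as the heart and skeletal muscle isoform of subunit 6a, measured 15.7 CPM in sham microglia, 70.2 CPM at 7 dpi and 72.3 CPM at 28 dpi, which gave a 7 dpi log2 ratio of 2.16 (1.65 to 2.71) and a 28 dpi log2 ratio of 2.20 (1.69 to 2.75). Its ubiquitous partner Cox6a1 measured 135, 259 and 203 CPM. Cox4i1, the ubiquitous isoform of subunit 4 and the member with the most UMIs of all, measured 457, 1184 and 1129.6 CPM. Cox5a measured 124, 201 and 179.7 CPM. Of the assembly factors, Ndufaf7, a methyltransferase for complex I assembly, was lower after injury, at 43.9, 21.6 and 22.5 CPM, and so was Ndufaf4, another complex I assembly factor, at 36.3, 17.9 and 24.5 CPM.

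The depleted cords kept few cells of the microglial cluster, 29 in the sham, 61 in the 7 dpi and 126 in the 28 dpi PLX5622 library. Their summed members measured 10986, 15717 and 17362 CPM, so the sham library was again the lowest. Over the sham PLX5622 library, the 7 dpi cells had a log2 ratio of 0.52 (0.44 to 0.60) and the 28 dpi cells one of 0.66 (0.58 to 0.74), and 0.52 and 0.71 relative to the median of all genes. Cox6a2 measured 14.1 CPM in sham and 27.9 CPM at 28 dpi, from 2 and 12 UMIs, and was highest at 7 dpi, from 23 UMIs (interval 38.03 to 90.03 CPM). Cox4i1 measured 508, 1163 and 1159 CPM. Against the vehicle library of the same time, the summed members of the remaining microglia differed by 0.10 at sham, -0.14 at 7 dpi and 0.15 at 28 dpi on the log2 scale, each smaller than the differences between sham and injury.

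**Figure D3:**
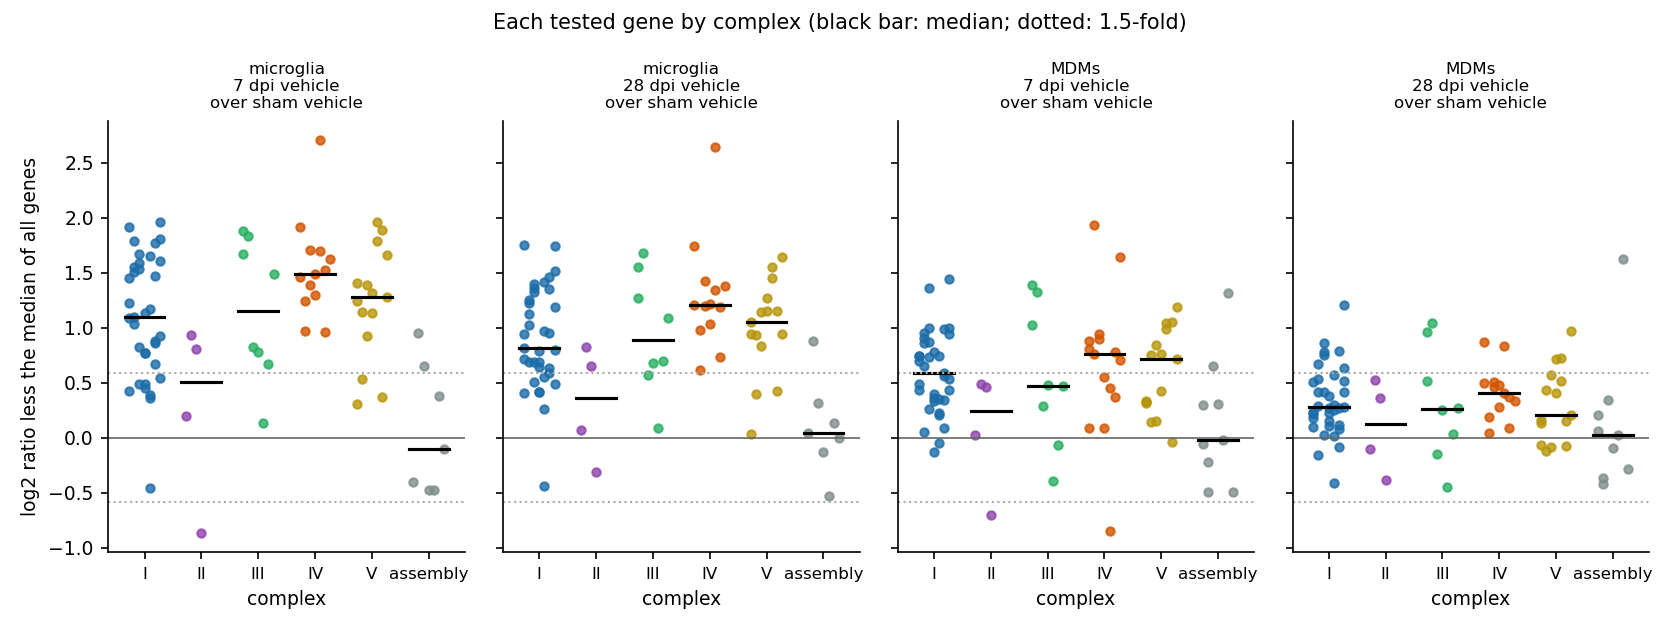
Log2 ratio of each tested member, less the median of all genes tested, grouped by complex, for 7 and 28 dpi over sham under vehicle in microglia and MDMs, with 1 point per gene, a black bar for the median and dotted lines at 1.5-fold. In microglia at 7 dpi all 13 tested complex IV members lie above the 1.5-fold line, and Cox6a2 is highest at 2.70, while Sdhd of complex II is lowest at -0.86.

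The start of these genes was examined because most members moved together in microglia. Nuclear respiratory factor 1 (NRF1) and the ETS factor GABP (NRF2) are known activators of nuclear respiratory genes, and Sp1 and YY1 are broader factors with sites in some of them. RefSeq promoters of the GRCm38.p6 assembly, 250 bases before to 50 after the start, were found for 75 of the 93 members. The NRF1 core GCGCATGCG, searched on both strands, was present in 10 of 75 member promoters (13.3%), against 1.95% of all genes in the promoter table and 3.58% of those in the count table. The ETS core CCGGAAG was in 25.3% of members against 9.93% and 17.2%, and the YY1 word AAGATGGCG in 9.33% against 1.64% and 2.98%. The Sp1 core GGGCGG was in 45.3% of members, against 38.2% of all genes and 64.5% of the genes in the count table. A match is a match of letters and was not examined for binding. The stretches printed next are the 250 bases before the start, 5′ to 3′ in the direction of the gene, with motif matches in capitals. Cox6a1 is shown as a paralogue family member with an NRF1, an ETS and Sp1 matches, Atp5e and Ndufb7 as the highest members after Cox6a2 in microglia at 7 dpi, and Sdhd as the lowest. Cox4i1 and Cox6a2 are named only.
Cox6a1, chr5:115348959-115349208, - strand: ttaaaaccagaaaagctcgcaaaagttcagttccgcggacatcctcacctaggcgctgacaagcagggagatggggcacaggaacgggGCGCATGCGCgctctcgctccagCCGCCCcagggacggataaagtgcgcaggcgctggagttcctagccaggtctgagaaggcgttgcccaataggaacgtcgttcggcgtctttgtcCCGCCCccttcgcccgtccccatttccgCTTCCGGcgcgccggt
Atp5e, chr2:174464102-174464351, - strand: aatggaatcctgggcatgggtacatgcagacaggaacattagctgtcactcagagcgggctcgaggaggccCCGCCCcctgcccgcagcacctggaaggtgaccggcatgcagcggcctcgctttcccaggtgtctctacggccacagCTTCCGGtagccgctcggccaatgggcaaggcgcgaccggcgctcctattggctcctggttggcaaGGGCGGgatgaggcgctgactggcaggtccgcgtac
Ndufb7, chr8:83566508-83566757, + strand: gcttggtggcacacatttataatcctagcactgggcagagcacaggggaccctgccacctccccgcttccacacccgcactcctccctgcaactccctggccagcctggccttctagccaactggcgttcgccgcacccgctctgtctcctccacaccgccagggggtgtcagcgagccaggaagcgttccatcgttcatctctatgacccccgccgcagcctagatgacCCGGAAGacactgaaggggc
Sdhd, chr9:50603850-50604099, - strand: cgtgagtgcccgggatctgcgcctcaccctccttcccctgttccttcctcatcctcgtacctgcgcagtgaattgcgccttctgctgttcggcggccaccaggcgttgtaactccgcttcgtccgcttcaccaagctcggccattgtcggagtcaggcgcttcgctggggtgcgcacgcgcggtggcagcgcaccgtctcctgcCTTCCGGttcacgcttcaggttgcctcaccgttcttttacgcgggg
In the Cox6a1 stretch the NRF1 core lies on both strands at overlapping positions, since the word is nearly palindromic. Atp5e held an ETS and 2 Sp1 matches, and Ndufb7 and Sdhd, at opposite ends of the microglial ranking, each held 1 ETS match in the printed stretch. In the bases after the start, which are not printed, Sdhd also had an Sp1 match.

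MDMs, which derive from blood monocytes that enter the lesion, showed a smaller difference from sham. Their summed members measured 14710.2 CPM in 185 sham cells, 19151 CPM in 3023 cells at 7 dpi and 16075 CPM in 3313 cells at 28 dpi under vehicle. Over sham, the 7 dpi log2 ratio was 0.38 (0.36 to 0.40) and the 28 dpi one 0.13 (0.11 to 0.15), or 0.63 and 0.38 relative to the median of all genes. At 7 dpi 40 of 86 tested members were more than 1.5-fold higher, where 17.0% of all genes were, and 2 were lower, where 16.2% were. At 28 dpi 15 of 84 were higher, against 11.0% of all genes, and 0 were lower, against 10.0% of all genes. The 28 dpi count of higher members was 29 with each cell weighted alike and 23 in cells with at most 3000 genes. Ribosomal protein genes had a median of 0.31 at 7 dpi, with 17 of 89 more than 1.5-fold higher.

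By complex, relative to all genes, the MDM values at 7 dpi were 0.69 for complex III, 0.66 for complex V, 0.64 for complex I, 0.63 for complex IV, 0.17 for complex II and 0.11 for the assembly group. Among members with at least 10 UMIs in each library Ndufb7 had the highest ratio at both times, at 86.0 CPM in sham, 196 CPM at 7 dpi and 167 CPM at 28 dpi. Above it lay only members with 3 to 5 UMIs in sham MDMs, Cox7a1 (3 UMIs in sham and 135 at 7 dpi), Cox6b2 (3 and 110) and, at 28 dpi, Ndufaf6 (5 and 127). Uqcr10, a small complex III subunit, measured 152 CPM in sham and 333 CPM at 7 dpi, and Ndufc1, a complex I membrane-arm subunit, 106 and 229.5 CPM. Cox6a2 went the other way at 7 dpi, where it was the lowest member: it measured 58.5 CPM in sham MDMs, 27.3 CPM at 7 dpi and 87.6 CPM at 28 dpi. At 28 dpi Uqcr11, a small complex III subunit, measured 305 CPM against 176 CPM in sham, and Atp5g1, a gene for the c subunit of ATP synthase, 229.6 against 139.6 CPM. The lowest members at 28 dpi were Uqcrc2, a core protein of complex III (74.5 against 121 CPM), Sdhaf2, an assembly factor for complex II (18.6 against 29.6 CPM), and Ndufs1 (17.8 against 28.2 CPM). The MDM cluster in the sham cord also held more of the microglial markers, 3803 CPM against 1136 and 1673 CPM at 7 and 28 dpi, and fewer MDM marker UMIs, 10317 CPM against 37997 and 21811 CPM. The part of this in the ratios was not tested.

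Diets were compared in MDMs to ask whether macrophages differ in a cord without most of its microglia. At 7 dpi the summed members measured 19390.3 CPM in 100 cells under PLX5622 and 19151 CPM under vehicle, a log2 ratio of 0.02 (0.00 to 0.03). Of 86 tested members, 4 were more than 1.5-fold higher, against 7.06% of all genes, and 2 were lower, against 7.53%. The cells under PLX5622 were deeper, with a median of 15945 UMIs against 5777, and when cells were limited to at most 3000 genes, the log2 ratio relative to all genes was -0.41 with 20 members lower, from the 46 PLX5622 cells that remained. Cox6b2 had the highest ratio, at 14.3 CPM under PLX5622 and 5.53 CPM under vehicle, from 25 and 110 UMIs. Sdhd followed, at 69.9 CPM under PLX5622 and 34.1 CPM under vehicle, though its direction changed when each cell was thinned to 1000 UMIs. Ndufaf3, Ndufa9 and Cox7a2l were the lowest with at least 10 UMIs in each library, with Cox7a2l at 371 against 493 CPM.

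At 28 dpi the summed members measured 19476 CPM in 161 MDMs under PLX5622 and 16075 CPM under vehicle, a log2 ratio of 0.28 (0.26 to 0.30). The PLX5622 level was close to both 7 dpi levels, and the vehicle level lay below them. Of 84 tested members, 7 were more than 1.5-fold higher, against 8.23% of all genes, and 2 were lower, against 9.4% of all genes. Although the counts past 1.5-fold were near those of all genes, 64 of 84 members lay above the median of all genes. Atp5k, the e subunit of ATP synthase, measured 404 against 199 CPM, Ndufa1 373 against 199.6 CPM, and Ndufab1, the mitochondrial acyl carrier protein, 31.9 against 15.1 CPM. Ndufaf2 (18.6 against 29.4 CPM), Ndufa9 (34.97 against 49.3 CPM) and Sdhc (51.3 against 72.3 CPM) were the lowest with at least 10 UMIs in each library.

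In astrocytes the summed members after injury were close to the sham level in CPM and above it relative to all genes. Under vehicle they measured 22923 CPM in 310 sham cells, 23591 CPM in 69 cells at 7 dpi and 21835 CPM in 245 cells at 28 dpi. At 7 dpi the log2 ratio over sham was 0.04 (-0.01 to 0.09), and 0.48 relative to a median of -0.44, or 0.57 in the 25 cells at 7 dpi and 294 sham cells with fewer than 3 UMIs of the myeloid list given next. The log2 ratio of 28 dpi over sham was -0.07 (-0.11 to -0.03), while the median of all 1891 genes tested was -0.35, so relative to that median the members were 0.28 higher. The direction thus depended on the scale: with TMM factors, DESeq2 size factors or totals without ribosomal protein genes the ratio was positive, at 0.26, 0.28 and 0.07. For 2 libraries the DESeq2 factor rests on the median gene ratio, so its 0.28 restates the value relative to all genes. Of 69 tested members, 12 were more than 1.5-fold higher relative to all genes, against 27.3% of all genes, and 2 were lower, against 19.7% of all genes.

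In the astrocyte cluster the myeloid genes, a list of 12, summed to 1942 CPM in sham, 23809 CPM at 7 dpi and 22538 CPM at 28 dpi under vehicle, and to 121, 2304 and 963 CPM under PLX5622. The ribosomal protein genes summed to 18739.9, 132825 and 106995 CPM under vehicle, and 77 of 78 tested were more than 1.5-fold higher at 28 dpi. Cox7a2l, which encodes a factor for respiratory supercomplexes, measured 139.8 CPM in sham astrocytes and 357 CPM at 28 dpi, the highest ratio of any member. In astrocytes with fewer than 3 myeloid UMIs (294 sham cells and 122 at 28 dpi) its value relative to all genes was 0.11 instead of 1.71. Cox4i1 measured 595 and 1268 CPM, 1.44 relative to all genes and 1.42 in the cells with fewer than 3 myeloid UMIs. So in cells with few myeloid UMIs Cox7a2l was near the median of all genes and Cox4i1 was not.

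Other named members of complexes IV and V were lower in CPM in astrocytes at 28 dpi. Cox5a measured 654 CPM in sham and 391 CPM at 28 dpi, Atp5a1 499 and 285 CPM, and Atp5b 668 and 512 CPM. Ndufs4, a complex I subunit, had the lowest ratio, at 164 and 72.4 CPM, followed by Ndufaf4 (149 and 77.3 CPM) and Uqcrb, a complex III subunit (342 and 191 CPM). Atp5e measured 333 and 546 CPM, and Ndufa7, a complex I subunit, 187 and 307 CPM. Relative to all genes Ndufs4 was -0.83, Ndufaf4 -0.59, Uqcrb -0.49, Atp5a1 -0.45, Cox5a -0.39 and Atp5b -0.03. In cells with fewer than 3 myeloid UMIs the values in the same order were -0.21, -0.13, -0.27, -0.09, 0.01 and 0.26, so none of these members was past 1.5-fold lower there. Atp5e and Ndufa7 stayed near their values in all astrocytes, at 0.97 against 1.06 and 0.98 against 1.07.

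Without injury, PLX5622 astrocytes had a higher level of the summed members, 26296 CPM in 204 cells against 22923 CPM in 310 vehicle cells. The log2 ratio was 0.20 (0.17 to 0.23), and 0.18 relative to all genes. With each cell weighted alike in place of each UMI, the value relative to all genes was -0.07, the opposite direction. Of 73 tested members 5 were more than 1.5-fold higher, against 4.95% of all genes, and 0 were lower, against 3.16% of all genes. Ndufv1 had the highest ratio, at 152 CPM under PLX5622 and 70.5 CPM under vehicle, followed by Ndufs8, a complex I iron-sulfur subunit (157 and 92.3 CPM), and Uqcrc1 (213 and 139 CPM). At 7 and 28 dpi the PLX5622 astrocytes measured 30557 and 25777 CPM. In all 3 conditions the PLX5622 library was above the vehicle library in CPM, but in cells with fewer than 3 myeloid UMIs the 28 dpi value relative to all genes was -0.19, against 0.06 in all astrocytes.

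Across all cell types with enough cells, 7 dpi libraries were seldom below sham. Under vehicle the log2 ratio of the summed members over sham had an interval above 0 in 11 of 13 types at 7 dpi and below 0 in 0, and microglia (0.76) and neutrophils (0.75) were highest. At 28 dpi 10 of 14 types were above sham and 4 below. Between the injured libraries, 28 dpi was below 7 dpi in 11 of 13 types and above in 0. Relative to the median of all genes, 12 of 13 types were above sham at 7 dpi and 1 was below, erythroid cells (-0.37). At 28 dpi 11 of 14 types were above sham on that scale and 2 below. On the same scale 28 dpi was below 7 dpi in 10 of 13 types and above in 0. Neutrophils measured 7860.4 CPM in sham, 13265 CPM at 7 dpi and 11064 CPM at 28 dpi. In the same neutrophil libraries the myeloid list of 12 genes summed to 7570 CPM, 17541 CPM and 18974 CPM, the 6 MDM markers, of which 3 were at 0 in sham, to 932, 4885 and 3650 CPM, and the ribosomal protein genes to 29398, 92151 and 86818 CPM. The myeloid list was also higher in the injured than in the sham vehicle library of endothelial cells (1692, 9977 and 12345 CPM), T cells (4795, 21754 and 19249 CPM) and ependymal cells (139, 7570 and 8259 CPM). In the erythroid cells of the 7 and 28 dpi vehicle libraries the myeloid list exceeded the erythroid markers, with values given under Other observations. The part of these transcripts in the ratios was not tested. The 7 dpi library was the highest of the vehicle libraries in 12 of 13 types, macrophages among them. A library-wide shift and a shift in each cell type cannot be told apart with 1 library per condition.

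Paralogue shares showed in which clusters transcripts of a second isoform were counted. Ndufa4l2, a hypoxia-responsive relative of the complex IV subunit gene Ndufa4, made up 55.5% (50.5 to 60.4) of the UMIs of the pair in cluster 12 and 15.2% (13.7 to 16.7) in endothelial cells, against 0.0428% in microglia. It was the only member with at least 50 UMIs in 1 cluster and at least 4-fold the level of the next type, at 398 CPM in cluster 12 and 85.2 CPM in endothelial cells. In cluster 12 it measured 186 CPM in sham, 408 CPM at 7 dpi and 499.5 CPM at 28 dpi. A Ndufa4l2 UMI was found in 39.9% of cluster 12 cells and 11.8% of endothelial cells, against 0.0285% of microglia, with median depths of 1412.5, 2152 and 2201 UMIs per cell.

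Cox4i2, the second isoform of subunit 4, had the same 2 places, at 23.0% (19.3 to 27.0) of its pair in cluster 12 and 5.34% (4.64 to 6.10) in endothelial cells, against 0.0370% in microglia. In cluster 12 Cox4i2 measured 51.9, 264 and 244 CPM in the sham, 7 dpi and 28 dpi vehicle libraries, from 12, 11 and 23 UMIs. In endothelial cells it measured 3.24, 18.3 and 89.0 CPM under vehicle and 79.9, 37.2 and 116 CPM under PLX5622. The sham vehicle level was thus the lowest in endothelial cells, from 1 UMI.

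Cox6a2 took its highest share in microglia, at 22.4% (21.3 to 23.6) of the Cox6a pair, and 18.0% (17.3 to 18.7) in MDMs. By level, with all libraries pooled, erythroid cells came next after microglia, at 55.7 CPM from 30 UMIs against 63.0 CPM. In microglia its share was 10.5% in the sham, 21.3% in the 7 dpi and 26.3% in the 28 dpi vehicle library. In astrocytes it was 2.52%, and 0.357% in astrocytes with fewer than 3 myeloid UMIs. A Cox6a2 UMI was found in 11.3% of microglia and 1.75% of astrocytes, with median depths of 2201 and 1435.5 UMIs per cell.

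Cox7a1, the muscle isoform of subunit 7a, was highest in astrocytes, at 8.52% (7.23 to 9.95) of the UMIs of the Cox7a genes, followed by 3.37% in ependymal cells and 0.249% in microglia. Its astrocyte level was 66.7, 49.0 and 38.6 CPM in the sham, 7 dpi and 28 dpi vehicle libraries and 78.5, 47.6 and 106 CPM under PLX5622. Cox7a2l made up 64.4% of the same family in microglia and 26.3% in astrocytes, or 18.7% in astrocytes with fewer than 3 myeloid UMIs. Cox6b2, known from testis, reached 11.4% (9.84 to 13.2) of its pair in ependymal cells, the ciliated lining of the central canal, from 167 UMIs, against 1.16% in microglia, and 13.4% in erythroid cells, from 29 UMIs, with 17 of those in the sham vehicle library. In the count table Cox8b, a muscle isoform, was found only in astrocytes, with 7 UMIs, and the matrices of single libraries held a few more that the table lists at 0. Atp5g3, one of the 3 genes that encode the same mature c subunit of ATP synthase, made up 30.5% (28.5 to 32.6) of its family in astrocytes and 12.0% (11.4 to 12.5) in microglia.

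**Figure D4:**
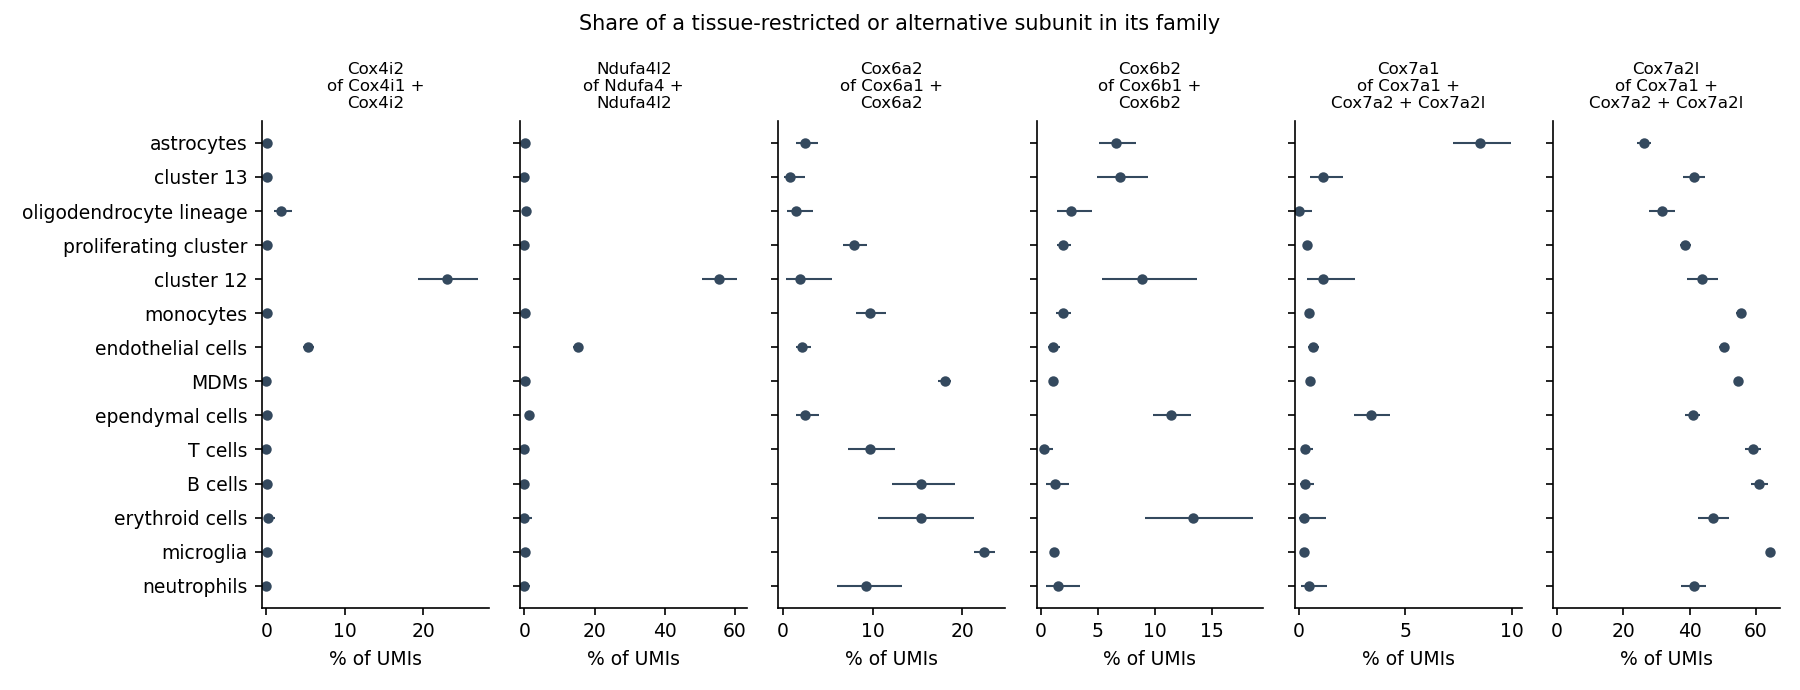
Share of the UMIs of a paralogue pair or family (percent) taken by the second isoform in each cell type, over all libraries, with 95% counting intervals. Ndufa4l2 and Cox4i2 are highest in cluster 12 (55.5% and 23.0%) and then in endothelial cells, Cox6a2 in microglia (22.4%) and Cox7a1 in astrocytes (8.52%).

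Other mitochondrial gene lists were placed beside the members in microglia at 7 dpi, where 20.6% of all genes tested were more than 1.5-fold higher and 15.7% lower. Of 6 respiratory subunits and carriers that the symbols missed, 3 were more than 1.5-fold higher and 1 lower relative to all genes, with a median of 0.90. Of 73 tested mitochondrial ribosomal protein genes, 36 were higher and 2 lower, with a median of 0.58. The enzymes were nearer to the median of all genes: of 18 tested TCA cycle and pyruvate genes 2 were higher and 1 lower, with a median of 0.15. All 5 tested regulators of mitochondrial biogenesis were more than 1.5-fold lower, with a median of -0.83. In MDMs at 7 dpi the TCA cycle list had a median of -0.04 and the mitochondrial ribosome 0.47, and in astrocytes at 28 dpi the TCA cycle list had -0.37.

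The members have short transcripts, with a median length of 707.5 bases over 92 genes against 2186 bases over 14446 genes of the table. In microglia at 7 dpi the shorter members had the higher ratios: the median relative to all genes was 1.72 for 10 members under 500 bases, 1.26 for 48 members of 500 to 1000 bases, 0.55 for 17 members of 1000 to 2000 bases and 0.34 for 6 longer members. Other genes of the same lengths had medians of 0.44, 0.33, 0.05 and -0.12, so in microglia at 7 dpi the members lay above the other genes in each band. In astrocytes at 28 dpi the shorter members did not: the medians were 0.42 for 10 members under 500 bases against 1.25 for other genes, 0.26 against 0.30 at 500 to 1000 bases, 0.13 against 0.06 at 1000 to 2000 bases and -0.07 against -0.18 above that. In microglia at 7 dpi Spearman's rho between ratio and length was -0.585 over 81 members and -0.279 over 6277 genes. It was -0.459 in MDMs at 7 dpi and 0.0256 in the MDM comparison of the diets at 7 dpi. The ratio also went with the level of a gene. In microglia at 7 dpi rho between ratio and level was 0.526 over members and 0.0861 over all genes tested. Between level and length it was -0.479 over members. These values are across genes of the same libraries and are a description. The parts of transcript length and of level in the ratios were not tested.

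**Figure D5:**
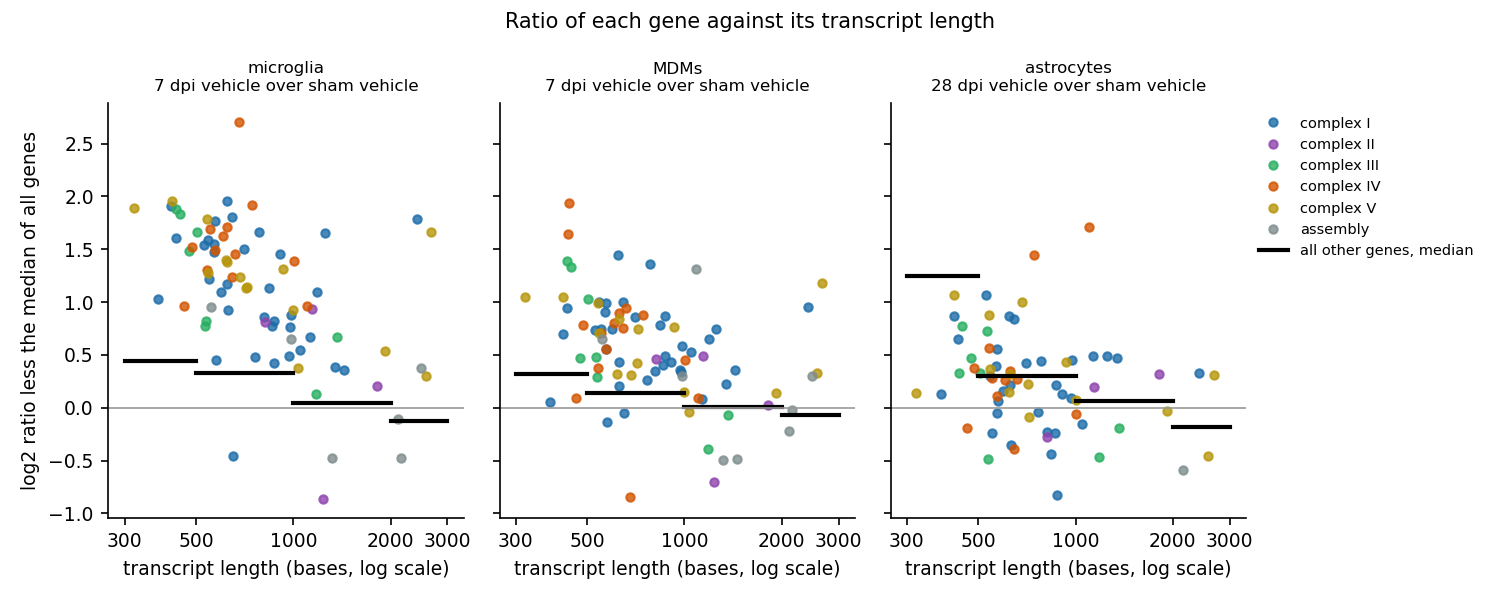
Log2 ratio of each member less the median of all genes tested, against the median length of its transcripts (bases, log axis), in microglia and MDMs at 7 dpi and astrocytes at 28 dpi over sham under vehicle, with points coloured by complex and lines for the median of the other genes in each length band. In microglia at 7 dpi the ratio is highest in members under 500 bases (median 1.72) and lowest in those over 2000 bases (0.34).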

How the data were processed

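The 6 scRNA-seq libraries were used, and the bulk RNA-seq samples were not analysed here. The authors counted UMIs of 10X 3′ reads with Cell Ranger (3.0.2 in the matrix headers, build GRCm38/mm10 in the submitters' processing notes) and clustered cells with Seurat. The deposited values are raw UMI counts in 1 table of 21016 cells with a cluster number for each cell. Library totals were 7185077 (sham), 35694246 (7 dpi) and 27768968 (28 dpi) UMIs for vehicle, against 2606149, 4353923 and 3697581 for PLX5622. The table keeps 716 cells with over 3000 genes, above the limit in the study's methods, and has 0 mitochondrially encoded symbols. Doublets were left in.

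Members were taken by symbol, and members and lists were chosen with earlier results of these data known. For 17 members, over 10% of the words of 50 bases in the last 300 bases of the transcript also occur in another gene, so their counts are uncertain. Atp5g1, Uqcrb, Ndufab1 and Ndufs5 are among them. Sums per cluster and library were scaled to CPM with exact Poisson 95% limits. Ratios of 2 libraries carry exact conditional binomial (Clopper-Pearson) 95% limits. In the ratios of all genes that gave the median and the counts past 1.5-fold, UMI counts below 3 in a library were set to 3. A gene was tested when both libraries together held 100 or more UMIs, and a pair needed 20 cells in each library. All limits cover counting error only. The scripts were tested on simulated data.

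Genes named were the paralogue families, Ndufs1, Ndufv1, Sdha, Sdhb, Uqcrc1, Uqcrfs1, Cox5a, Atp5a1, Atp5b, the member with the most UMIs of each complex, the 3 highest and 3 lowest members of each main comparison with 10 or more UMIs in each library, and members 4-fold over the next type with 50 or more UMIs. Not every gene of this rule is reported in every comparison, and 1 is not reported here. The length bands, the printed promoters and values of these genes in further comparisons were chosen after values were seen. The alternatives were TMM factors (edgeR 4.0.16), DESeq2 1.42.0 size factors, totals without Rpl and Rps genes, each cell weighted alike, thinning to 1000 UMIs per cell, a minimum of 500 genes, gene minimums of 50 and 400 UMIs, and cells with fewer than 3 UMIs of the myeloid list. A maximum of 3000 genes, barcodes of 1 library only and uncentred ratios were added after seeing the data. Sums and intervals were computed with scipy 1.17.1 and pandas 2.3.3 (Python 3.11.15), and scaling factors in R 4.3.3.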

Additional observations from a re-analysis of the deposited data

Results flagged for a closer look

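Several pairs of comparisons of the summed members pointed in opposite directions, each from 1 library per condition, and the differences between them were not tested. All values are log2 ratios of the summed members less the median of all genes. In microglia PLX5622 over vehicle gave 0.18 in sham (29 PLX5622 cells), -0.13 at 7 dpi (61 cells) and 0.20 at 28 dpi (126 cells). Endothelial cells had the same signs with smaller values, 0.092 in sham, -0.050 at 7 dpi and 0.13 at 28 dpi. In B cells PLX5622 over vehicle gave -0.36 at 7 dpi and 0.16 at 28 dpi. In astrocytes 28 dpi over sham gave 0.28 under vehicle and -0.082 under PLX5622. The PLX5622 value was 0.037 with each cell weighted alike and 0.017 in cells with at most 3000 genes, the same direction as under vehicle, and its log2 ratio before the median was taken off was -0.03, with an interval that held 0. The myeloid list of 12 genes summed to 22538 CPM in the vehicle and 963 CPM in the PLX5622 library at 28 dpi. The part of the myeloid transcripts in that difference was not tested.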

How the results depend on the processing

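Only 1 library stood for each condition, the PLX5622 libraries held 29 to 126 microglia, and members with few UMIs had wide intervals. No paired analysis was possible because each condition had 1 library and no result came from a test. Without the shared barcodes every ratio and share computed stayed within its counting interval. Counts stayed within 1.5 times, and levels were only checked to lie within their range over libraries, a wider limit, which they did. TMM factors, DESeq2 size factors and totals without Rpl and Rps leave ratios relative to the median of all genes as they are. The total without mitochondrially encoded genes was not run, as the table holds none. Where too few cells remained, in comparisons of erythroid cells, oligodendrocyte lineage, the proliferating cluster and clusters 12 and 13, some alternatives gave no value. Values below are log2 ratios of the summed members less the median of all genes unless named, and the cause of a change was not tested. Of the alternative values for single genes, 1343 stayed within the counting interval, 106 moved beyond it and 11 changed sign. The 1343 include 150 values each from TMM factors, DESeq2 size factors and totals without Rpl and Rps, which could not move them. With cells thinned to 1000 UMIs, 65 stayed within the interval, 40 moved beyond it and 5 changed sign.

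With each cell weighted alike, microglia gave 1.39 at 7 dpi, MDMs 0.76 at 7 dpi and 0.50 at 28 dpi, the diets in MDMs -0.074 at 7 dpi and 0.18 at 28 dpi, and astrocytes 0.24 at 28 dpi. The direction turned for the diets in sham astrocytes (-0.069, with 3 members past 1.5-fold higher and 2 lower; Cox4i1 -0.080, Sdhb -0.16), for 28 dpi over sham in PLX5622 astrocytes (0.037) and for the diets in astrocytes at 28 dpi (-0.017). Members lower were 2 in microglia at 7 dpi, 1 at 28 dpi, 1 in MDMs at 28 dpi (29 higher), 4 for the diets in MDMs at 28 dpi and 0 in astrocytes at 28 dpi, and the MDM median of complex II was 299.7 CPM.

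With cells thinned to 1000 UMIs, microglia gave 1.18 at 7 dpi and 1.02 at 28 dpi (2 members lower), MDMs 0.56 at 7 dpi (1 lower), the diets in MDMs -0.012 at 7 dpi (8 lower) and 0.29 at 28 dpi (12 higher, 0 lower), astrocytes 0.40 at 28 dpi (0 lower) and the diets in sham astrocytes 0.22. Signs turned for Atp5a1 (-0.036) in MDMs at 7 dpi, Cox5a (-0.089) in MDMs at 28 dpi, Sdhd (-0.16) for the diets in MDMs at 7 dpi, and Uqcrc1 (-0.48) and Uqcrfs1 (0.019) for the diets in MDMs at 28 dpi. Shares were 32.5% for Cox4i2 in cluster 12, 21.5% for Cox6a2 in MDMs, 13.7% for Cox6b2 in ependymal cells, 12.9% for Ndufa4l2 in endothelial cells and 33.7% for Atp5g3 in astrocytes.

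With cells of at most 3000 genes, MDMs gave 0.76 at 7 dpi and 0.50 at 28 dpi (23 higher), the diets in MDMs -0.41 at 7 dpi (20 lower; Ndufa9 0.15 and Ndufv1 -0.38 changed sign) and 0.22 at 28 dpi, astrocytes had 1 member lower at 28 dpi, and the diets in sham astrocytes gave 0.075 (3 higher; Atp5b turned to -0.0024). For 28 dpi over sham in PLX5622 astrocytes the sign turned (0.017). Cluster 13 measured 24790 CPM, complex II in MDMs 300.45 CPM, and shares were 4.62% and 32.4% for Cox4i2 in endothelial cells and cluster 12, 19.0% for Cox6a2 in MDMs, and 13.3% and 74.8% for Ndufa4l2 in endothelial cells and cluster 12.

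With genes of at least 50 UMIs, microglia gave 1.33 at 7 dpi, with 1 member lower at 28 dpi, MDMs 0.65 at 7 dpi, astrocytes 0.24 at 28 dpi (5 lower), and the diets in astrocytes at 28 dpi -0.025. With at least 400 UMIs, microglia gave 1.13 at 7 dpi (0 lower) and 0.96 at 28 dpi, MDMs 0.55 and 0.31, the diets in MDMs had 1 member lower at 7 dpi and 1 at 28 dpi, astrocytes gave 0.17 at 28 dpi (3 higher, 0 lower), and the diets in sham astrocytes had 0 higher. With at least 500 genes per cell astrocytes gave 0.36 at 28 dpi (1 lower).

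In cells with fewer than 3 myeloid UMIs, astrocytes gave 0.40 at 28 dpi (0 lower; Cox5a turned to 0.0064), the diets in astrocytes at 28 dpi -0.19, and shares were 6.64% for Cox4i2 and 13.4% for Ndufa4l2 in endothelial cells, and 0.357% for Cox6a2, 10.8% for Cox7a1, 18.7% for Cox7a2l and 32.8% for Atp5g3 in astrocytes. Without centring, 28 dpi over sham in astrocytes turned positive with TMM factors (0.26), DESeq2 size factors (0.28) and totals without Rpl and Rps (0.066), and the diets in MDMs at 7 dpi turned negative with the last (-0.017). The DESeq2 value restates the value relative to the median of all genes.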

Other observations

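The complexes took different parts of the member UMIs in different cell types, given here as values chosen after they were seen. Complex I, as the median over libraries, took 34.2% of the member UMIs in ependymal cells (31.8 to 35.1 over 6 libraries) and 23.6% in erythroid cells (19.6 to 27.8 over 4 libraries), the highest and the lowest median of any type. The erythroid libraries differed: complex I took 21.0% in sham vehicle and 19.6% in 7 dpi PLX5622, where the 4 erythroid markers in the table summed to 140473 and 190892 CPM, and 27.8% and 26.1% in the 7 and 28 dpi vehicle libraries, where they summed to 4038 and 5449 CPM and the myeloid list to 41464 and 37845 CPM. The part of the myeloid transcripts in these shares was not tested. Microglia lay between, at 27.6% (27.0 to 29.7 over 6 libraries). Ndufaf4, an assembly factor for complex I, measured 115 CPM in astrocytes with all libraries pooled and 54.1 CPM in oligodendrocyte lineage cells, the next type. Ndufs5, a complex I subunit, gave only 152 UMIs in all cells, and 47.8% of the 50-base words at the end of its transcript also occur in another gene.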
